A study of Xenopus laevis with 5 samples.

Results

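Xenopus laevis is an allotetraploid frog, whose genome joins those of a pair of ancestral species. Most of its chromosomes therefore come as a long form, L, and a short form, S, and many genes are present as an L and an S copy, called homeologs. In textbook accounts the S chromosomes have lost more genes than the L chromosomes. The levels of the L and S copies were compared with each other in control embryos. Pairs were taken from the deposited annotation of Xenbase gene models on the Xenla9.1 build, where the same gene symbol ends once in .L and once in .S. Symbols that start with LOC, Xelaev or Xetrov were left out, and 289 pairs named by Xetrov identifiers were thus not used. Other names, such as MGC76328, were kept. This gave 9287 pairs, or 18574 of the 45099 gene models counted, and 5541 pairs were kept because at least 1 copy reached 1 CPM, a read count scaled to the library's gene reads, in all 3 control libraries. Of the other 3746 pairs, 2717 had some reads and 1029 had none. A further 3816 symbols had an L model and no S model, against 1138 with an S model and no L model. These unpaired symbols held 86764 to 89189 and 31371 to 33488 CPM in sum, and they entered no comparison.

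The study injected fertilized eggs with 18 ng of a control morpholino, a stable antisense oligonucleotide that serves as the control, or with 18 ng of a morpholino against MOV10. Only the 3 control libraries of the 5 were used, and each was made from a whole embryo preparation at stage 10.5, when gastrulation begins. The study's design text calls the libraries biological replicates, and the labels state that separate embryos were collected. The eggs of 2 mating pairs were used, and the labels tie no library to either of them. All control embryos carried the morpholino, so no uninjected embryo stands beside them. Each library holds the L and the S copy of every pair, so the copies were compared within a library and the depth of a library cancels in the ratio.

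Control replicates 1, 2 and 3 had 13515787, 12114894 and 11592035 reads assigned to genes, which was 9.01 to 10.4% of all reads. The pairs held 55.0 to 58.5% of these gene counts. A floor of 3 counts corresponded to 0.222 to 0.259 CPM. The labelled stage was checked with marker genes. All 26 models of early gastrula markers had reads, with a summed level of 3910, 3122 and 3406 CPM in replicates 1, 2 and 3. Markers of later muscle, which should be near 0 at this stage, summed to 112, 452 and 221 CPM. Only 2 of their 19 models, both copies of tnnc1, were at 0, so this part of the check was not met. The 6 models of blood and later epidermis markers summed to 257, 316 and 482 CPM, and 0 of them were without reads. The part of these differences between libraries in the results was not tested.

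Most kept pairs were called unequal, and neither set of copies dominated. The S copy was higher in 1645 pairs (29.7% of the 5541 tested) and the L copy in 2141 (38.6%), so 68.3% were called in either direction by edgeR's quasi-likelihood test at an adjusted p under 0.05. The difference was at least 2-fold in 1373 pairs with S higher and 1800 with L higher, and at least 32-fold in 213 and 373. Only 1299 pairs (23.4%) lay within 1.5-fold of equality. Summed over all kept pairs, the S copies held 276997, 265151 and 260706 CPM and the L copies 305400, 292425 and 286879 CPM in replicates 1, 2 and 3. The S share of pair CPM was thus 47.6% ± 0.0304 (SD, n = 3). The median log2 ratio of S to L was -0.21, -0.20 and -0.22 in the 3 libraries, a mean of -0.21 ± 0.014 (SD, n = 3). An exact two-sided sign-flip permutation test over the libraries gave p = 0.25 for the median and p = 0.25 for the share, and 0.25 is the smallest p that 3 libraries allow.

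**Figure D1:**
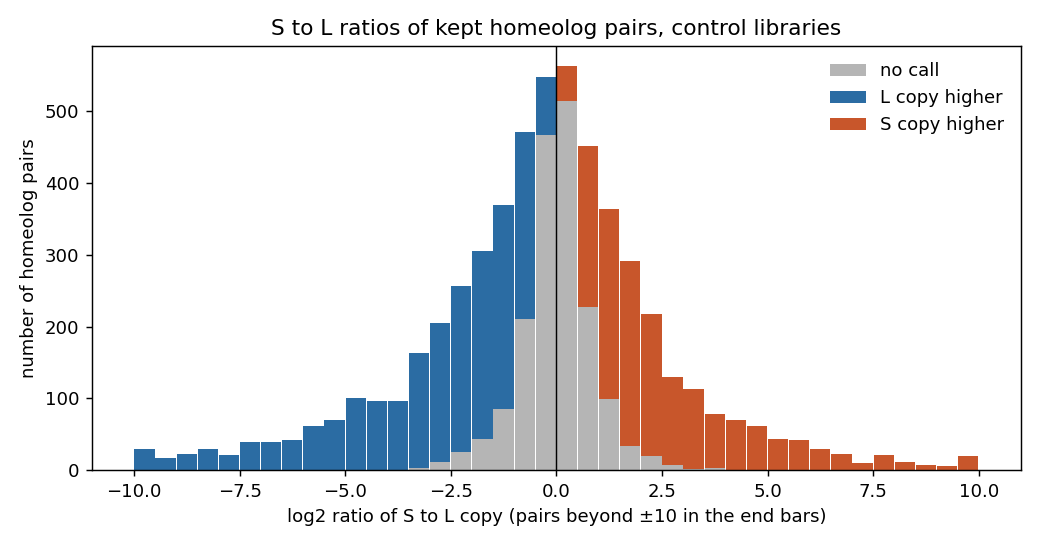
Number of homeolog pairs (vertical axis) by the fitted log2 ratio of the S to the L copy (horizontal axis) in the 3 control libraries, with pairs beyond 10 in either direction in the end bars. Pairs with a copy without reads are placed at their bound against 3 counts, not at the fitted ratio. Blue bars are the 2141 pairs with the L copy higher, orange bars the 1645 with the S copy higher and grey bars the 1755 pairs without a call, which are most frequent next to 0.

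The histogram of ratios shows long tails on both sides, with quartiles of -1.80 and 1.17. The side of most pairs held across the 3 libraries. In 4634 pairs (83.6%) all 3 libraries had more reads from the same copy. This was so for 3783 of the 3786 called pairs, but the calls were made from these same libraries, so that count is no separate support. The log2 ratios of any 2 libraries had a Pearson correlation across the 5541 pairs of 0.914 to 0.925, given as a description, since the points share genes and libraries. Over the 2685 pairs at 20 CPM or more, the median SD between libraries was 0.27 for the log2 ratio and 0.21 for the log2 level of the whole pair. For the 31 pairs of dorsoventral patterning genes the order was the other way, with a median SD of 0.34 for the ratio and 0.43 for the level, and for the 58 pairs of germ layer transcription factors it was 0.27 and 0.42.

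High pairs were less unequal in size. Among 993 pairs at 100 CPM or more, 81.4% were called, but the median absolute log2 ratio was 0.95. Below 5 CPM 50% of 1035 pairs were called, with a median absolute log2 ratio of 2.168 and few reads behind each ratio. The filter asks for 1 CPM in 1 copy, so it kept a faint pair more readily where its copies differed. The part of the filter in the larger median below 5 CPM was not tested. By chromosome, the median log2 ratio ran from -0.28 on chromosomes 4 and 8 to 0.03 on chromosome 5, and the S share of CPM from 41.4% on chromosome 3 to 54.6% on chromosome 5. Even on chromosome 5 more pairs were called for L (37.6%) than for S (32.4%). Neighbouring pairs along the L chromosomes had log2 ratios with a Pearson correlation of 0.051 over 5026 neighbours, again a description.

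The gene models limit what a ratio means. Transcript length was not given, and the deposited span of a model, which includes introns, was the only measure of size. Where the S span was under 1/2 of the L span, 368 pairs, the L copy was higher in 53.8% and the S copy in 21.7%, and 70 S copies had no read. In the 350 pairs with an L span under 1/2 of the S span the S copy was higher in 41.7% and the L copy in 31.4%. Across all kept pairs the log2 ratio of spans and the log2 ratio of levels had a Pearson correlation of 0.221, a description. Differences of at least 32-fold made up 7.80% of the 4230 pairs with the same human symbol on both copies, matching chromosomes and spans within 2 times of each other, against 19.5% of the other 1311. The overall split changed little in the stricter pairs, with the S copy higher in 29.1% and the L copy in 37.7%. A few symbols joined models on chromosomes that did not match, 18 of the kept pairs. In another 488 kept pairs at least 1 copy lay on a scaffold, so matching chromosomes could not be checked. Among these were ddx4, MGC76328, srp72, ggnbp2 and enoph1.

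The most abundant pairs encoded proteins of chromatin, RNA handling and folding, and both copies contributed to all those named here. Among the highest were hmgb2, ddx5, hspa8, ctsv, ddx39a, hnrnpk, srsf5, hnrnpdl and fus. Of these 9 the L copy was higher in 6, the S copy in 2, and hnrnpdl did not pass the test. The high mobility group gene hmgb2, whose protein bends DNA, had 6767, 7134 and 7066 CPM for L (Xelaev18005411m.g, chromosome 1L, 42348838 to 42352849) and 3484, 3585 and 3219 CPM for S (Xelaev18009158m.g, chromosome 1S, 37655946 to 37660670). No library of 1 copy reached the range of the other, and L was 2.04-fold higher (log2 ratio of S to L -1.03 ± 0.04 SE, edgeR adjusted p = 2.37e-06). The splicing factor gene srsf5 was the mirror case, with L at 1294, 1442 and 1298 CPM and S at 2940, 2838 and 2348 CPM, 2.01-fold higher for S (edgeR adjusted p = 1.42e-05).

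The RNA-binding protein gene fus had 1.65-fold more S than L RNA, with S at 2655, 2448 and 2077 CPM and L at 1562, 1518 and 1273 CPM (edgeR adjusted p = 9.63e-06). The helicase gene ddx5 and the heat shock cognate gene hspa8 passed with only 1.19-fold and 1.21-fold more L RNA, and neither passed with limma (adjusted p = 0.233 and 0.208) or in edgeR's test against a 1.5-fold difference. The lysosomal protease gene ctsv had the largest difference of the 9, 2.87-fold for L. For hnrnpdl the L copy had 2153, 2166 and 1722 CPM and the S copy 2045, 1950 and 1817 CPM, a log2 ratio of -0.05 ± 0.05 (SE, edgeR adjusted p = 0.436). Per kb of model span the ratio turned to 0.21 and was called for S (edgeR adjusted p = 0.0105).

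Some pairs with high RNA came almost wholly from 1 copy, although the other still had reads. The 10 most unequal pairs with L higher, at 20 CPM or more and with at least 10 reads in each copy, were tpt1, gs17, ahnak, ddx4, clk1, ociad2, sf3a1, MGC76328, anxa4 and prdx5, from 866-fold down to 205-fold. For ahnak the S model spans 1078 bases against 44532, and per kb of span the log2 ratio went from -8.93 to -3.59. The gene tpt1 encodes the translationally controlled tumour protein. Its L copy (Xelaev18013263m.g, chromosome 2L, 134539292 to 134544610) had 1107, 1121 and 1148 CPM and its S copy (Xelaev18015775m.g, chromosome 2S, 116459719 to 116460243) 1.11, 1.57 and 1.21 CPM. The log2 ratio was -9.76 (edgeR adjusted p = 6.98e-08). It rests on 48 S reads in all, and the S model spans only 525 bases against 5319 and carries no human symbol. The gastrula-specific gene gs17, on the other hand, had the longer model on S, 3743 against 2036 bases. Its L copy had 1104, 809 and 977 CPM and its S copy 1.33, 1.07 and 2.59 CPM, 590-fold apart (edgeR adjusted p = 3.73e-07).

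The germ cell helicase gene ddx4, known as vasa in the fly, had L at 171, 133 and 149 CPM and S at 0.518, 0.413 and 0 CPM, and was 463-fold higher for L (edgeR adjusted p = 3.48e-06). The calcium-dependent phospholipid-binding gene anxa4 was 270-fold higher for L, with 233, 188 and 272 CPM against 1.11, 0.413 and 1.04 CPM (edgeR adjusted p = 5.57e-07). With so few reads in the low copy the size of such a fold is imprecise, and the direction was the same without any 1 library. Leaving out replicate 1 gave 802-fold for ahnak, 915-fold for clk1 and 113-fold for prdx5, leaving out replicate 2 gave 501-fold for sf3a1, and leaving out replicate 3 gave 576-fold for prdx5.

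In the other direction stood a2m, srp72, rnaseh1, cyp27c1, mrps2, acer3, ggnbp2, angpt4, crnkl1 and enoph1, from 1623-fold down to 134-fold. The L model of enoph1, at the lower end, spans only 726 bases against 24839 for S and carries no human symbol. That of angpt4 has the L model of another pair, mrpl42, within its span. The protease inhibitor gene a2m, for alpha-2-macroglobulin, had 3335, 1296 and 1500 CPM from S (Xelaev18036689m.g, chromosome 7S, 3871473 to 3901670) and 0, 0.330 and 3.71 CPM from L (Xelaev18034319m.g, chromosome 7L, 5589336 to 5617696). Both models span about the same length, 30198 and 28361 bases, and all 3 S values lay far above the L values (log2 ratio 10.66 ± 0.88 SE, edgeR adjusted p = 4.10e-05). The fold was 763 without replicate 1 and 13542 without replicate 3, which held most of the L reads. The signal recognition particle gene srp72, needed to bring secreted proteins to the membrane, had 280, 308 and 299 CPM from S and 0.222, 0.578 and 0.431 CPM from L, 715-fold apart (edgeR adjusted p = 2.79e-07). The ceramidase gene acer3 was 224-fold higher for S.

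The symbol rnaseh1 needs care, because its S model is matched to human RPS7, a ribosomal protein gene, and its L model to none, so the 519-fold difference may not compare copies of 1 gene. Without replicate 1 the folds were 347 for mrps2 and 341 for ggnbp2, without replicate 2 they were 369 for cyp27c1 and 358 for crnkl1, and without replicate 3 crnkl1 stood at 127.

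A copy had no read in any control library in 297 kept pairs, L in 103 and S in 194. Among those with the most RNA from the other copy, no L read was found for has1, prpf8, sart1, champ1 and ssrp1, and no S read for gjb1, smc4, utp20, nudt21 and hbz. Against a floor of 3 counts over the 3 libraries, prpf8.S, the central protein of the spliceosome, was at least 7048-fold higher, at 631, 541 and 523 CPM. The silent prpf8.L model (Xelaev18011867m.g, chromosome 2L, 44515266 to 44517931) spans 2666 bases against 21088 for S (Xelaev18014576m.g, chromosome 2S, 33856882 to 33877969) and has no human match. Short models without a human match were also the silent copies of sart1 (1475 against 17558 bases), ssrp1 (604 against 95793), smc4 (1985 against 32349) and utp20 (4699 against 71361). In these pairs a fragment of a gene and a copy without RNA cannot be told apart.

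Not every silent copy had the shorter model. The S model of nudt21, a subunit of the pre-mRNA cleavage factor, spans 16197 bases against 10334 for L and had no read, while L had 202, 187 and 227 CPM and was at least 2541-fold higher. The gap junction gene gjb1 had 750, 426 and 588 CPM from L, at least 7373-fold above S, whose model of 668 bases is short beside 10678 for L. The zeta globin gene hbz had 151, 122 and 188 CPM from L and none from S, whose model spans 3517 bases against 10039, and L was at least 1896-fold higher. For has1, a hyaluronan synthase gene, the S model had 2222, 1563 and 1969 CPM and the L model none, at least 23932-fold apart at nearly equal spans. These models lie on 7L (Xelaev18036270m.g, 116157579 to 116161307) and 3S (Xelaev18019732m.g, 1588339 to 1592196), so they are not on matching chromosomes.

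At the other end were pairs whose copies were almost equal. The gene acin1, for a nuclear protein of the exon junction complex, had 638, 630 and 489 CPM from L and 636, 629 and 492 CPM from S, so that even the lower level of replicate 3 was shared (log2 ratio 0.00 ± 0.06 SE, edgeR adjusted p = 0.998). The maternal Wnt pathway repressor gene tcf7l1 had 105, 52.2 and 55.6 CPM from L and 110, 45.4 and 61.4 CPM from S. The log2 ratio was 0.01 ± 0.14 (SE). For ppid, a peptidyl-prolyl isomerase gene, the log2 ratio was 0.01 ± 0.16 (SE). A missed threshold does not show equality. Each error is 1 SE, and a difference of more than 1 SE could still be missed.

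At the early gastrula the dorsal lip acts as the organizer, which secretes antagonists of BMP, Nodal and Wnt ligands, while BMP signalling maintains ventral fates. In this network the S copy was higher in 9 of 31 kept pairs and the L copy in 14, with 8 not passing, so 29.0% and 45.2% stood beside 29.7% and 38.6% of all pairs. The median log2 ratio was -0.47, against -0.22 over all kept pairs. The sum over the list was even, with 50.6% of its CPM from S copies. Ligands, antagonists and transcription factors were found among the calls for each copy.

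Among the ligands, bmp7.2 came almost only from L. Its L copy (Xelaev18018155m.g, chromosome 3L, 88680820 to 88729441) had 245, 202 and 229 CPM and its S copy (Xelaev18020685m.g, chromosome 3S, 53998579 to 54039460) 2.52, 1.16 and 1.38 CPM, 135-fold apart with spans of 48622 and 40882 bases (log2 ratio -7.07 ± 0.22 SE, edgeR adjusted p = 8.34e-07). The related ligand gene bmp2 leaned to S, with 53.6, 12.1 and 34.5 CPM against 13.3, 5.86 and 14.0 CPM (2.77-fold, edgeR adjusted p = 0.00138), though replicate 2 of S lay below 2 libraries of L. For bmp4, the main ventral BMP ligand at this stage, S had 247, 206 and 205 CPM and L 156, 196 and 137 CPM, only 1.35-fold apart (edgeR adjusted p = 0.0229). Its call was lost without replicate 1 (log2 ratio 0.32, adjusted p = 0.118 by edgeR) and without replicate 3 (0.37 and 0.135). The organizer ligand gene admp was 3.06-fold higher for L and nodal 3.76-fold, with adjusted p = 0.000802 and 0.00255 by edgeR.

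Of the secreted antagonists, cerberus (cer1), which binds Nodal, BMP and Wnt ligands, was read almost only from S. The S copy (Xelaev18010056m.g, chromosome 1S, 101082938 to 101091485) had 461, 197 and 240 CPM and the L copy (Xelaev18006799m.g, chromosome 1L, 122083953 to 122090803) 5.84, 3.3 and 3.62 CPM. Both copies were highest in replicate 1, and the log2 ratio of 6.10 ± 0.15 (SE, edgeR adjusted p = 3.57e-07), 68.4-fold, held in each library. Sizzled (szl), an inhibitor of chordin-cleaving proteases on the ventral side, was 10.4-fold higher for L, with 173, 362 and 206 CPM against 23.8, 32.2 and 14.8 CPM (edgeR adjusted p = 8.41e-06).

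Noggin (nog), an organizer BMP antagonist, had 8.21, 19.9 and 11.8 CPM from L and 0.814, 2.89 and 4.57 CPM from S. It was 5.35-fold higher for L (edgeR adjusted p = 0.00200), and 8.08-fold without replicate 3. The Wnt antagonist genes sfrp2 and frzb were 6.65-fold and 2.15-fold higher for L. Their level in replicate 1 stood far above the others, at 157, 56.2 and 38.6 CPM for sfrp2.L and 229, 66.5 and 80.1 CPM for frzb.L, and the S copies followed. Without library as a term the call for frzb was lost (edgeR adjusted p = 0.0620). Another Wnt antagonist gene, dkk1, had the same steep drop in both copies, from 193 CPM to 29.3 and 68.7 CPM for L and from 132 CPM to 30.9 and 48.8 CPM for S, with no call between the copies (edgeR adjusted p = 0.105). Follistatin (fst), which binds activin and BMPs, was 2.44-fold higher for L (edgeR adjusted p = 0.0184), a call lost without replicate 2 (log2 ratio -1.04, adjusted p = 0.0976) or replicate 3 (-1.17 and 0.0970).

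Of the ventral homeobox genes of the ventx family, targets of BMP signalling, 3 pairs were kept and all 3 were called for S, a call made in 29.7% of all pairs. Levels of ventx1.2 were 324, 380 and 396 CPM for S and 137, 116 and 140 CPM for L, 2.79-fold apart (edgeR adjusted p = 3.01e-05). The factors for ventx1.1 and ventx3.2 were 2.48-fold and 5.23-fold. These genes are close relatives that lie close together on chromosomes 7L and 7S, and reads that fit several of them equally were not counted. Other genes of the list that respond to BMP were id3, id2, bambi, smad6, smad7 and msx1. The L copy was 1.82-fold higher for id3, 2.78-fold for id2 and 1.39-fold for the pseudoreceptor gene bambi, which did not pass with limma (adjusted p = 0.0746). The inhibitory Smad genes smad6 and smad7 and the homeobox gene msx1 were not called, with log2 ratios of -0.06 ± 0.23, -1.61 ± 0.84 and 0.17 ± 0.16 (SE). The protease gene bmp1, of the family that cleaves chordin, was 4.75-fold higher for L.

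Of the organizer homeobox genes, goosecoid (gsc) had 47.8, 41.8 and 35.1 CPM from S and 36.6, 29.1 and 20.7 CPM from L, 1.47-fold apart (edgeR adjusted p = 0.0222). Its call was lost without replicate 2 (log2 ratio 0.57, adjusted p = 0.0711) and without replicate 3 (0.45 and 0.0895), and per kb of model span the ratio turned to -0.09. The LIM homeobox gene lhx1 was 2.02-fold higher for S (edgeR adjusted p = 0.00997), which did not pass without replicate 2 (0.84 and 0.0642), and the head gene otx2 was 3.07-fold higher for L (edgeR adjusted p = 0.00171), which did not pass without library as a term (0.0519). For the notochord gene not, L had 8.73, 27.6 and 30.6 CPM and S 10.4, 24.3 and 19.1 CPM, without a call. The Nodal antagonist gene lefty passed at 1.54-fold for L (edgeR adjusted p = 0.0428), but neither without replicate 1 (-0.46 and 0.212) nor without replicate 2 (-0.61 and 0.153). Per kb of model span the log2 ratio of lefty was only -0.096 (edgeR adjusted p = 0.720), and lefty did not pass with limma (adjusted p = 0.0753).

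**Figure D2:**
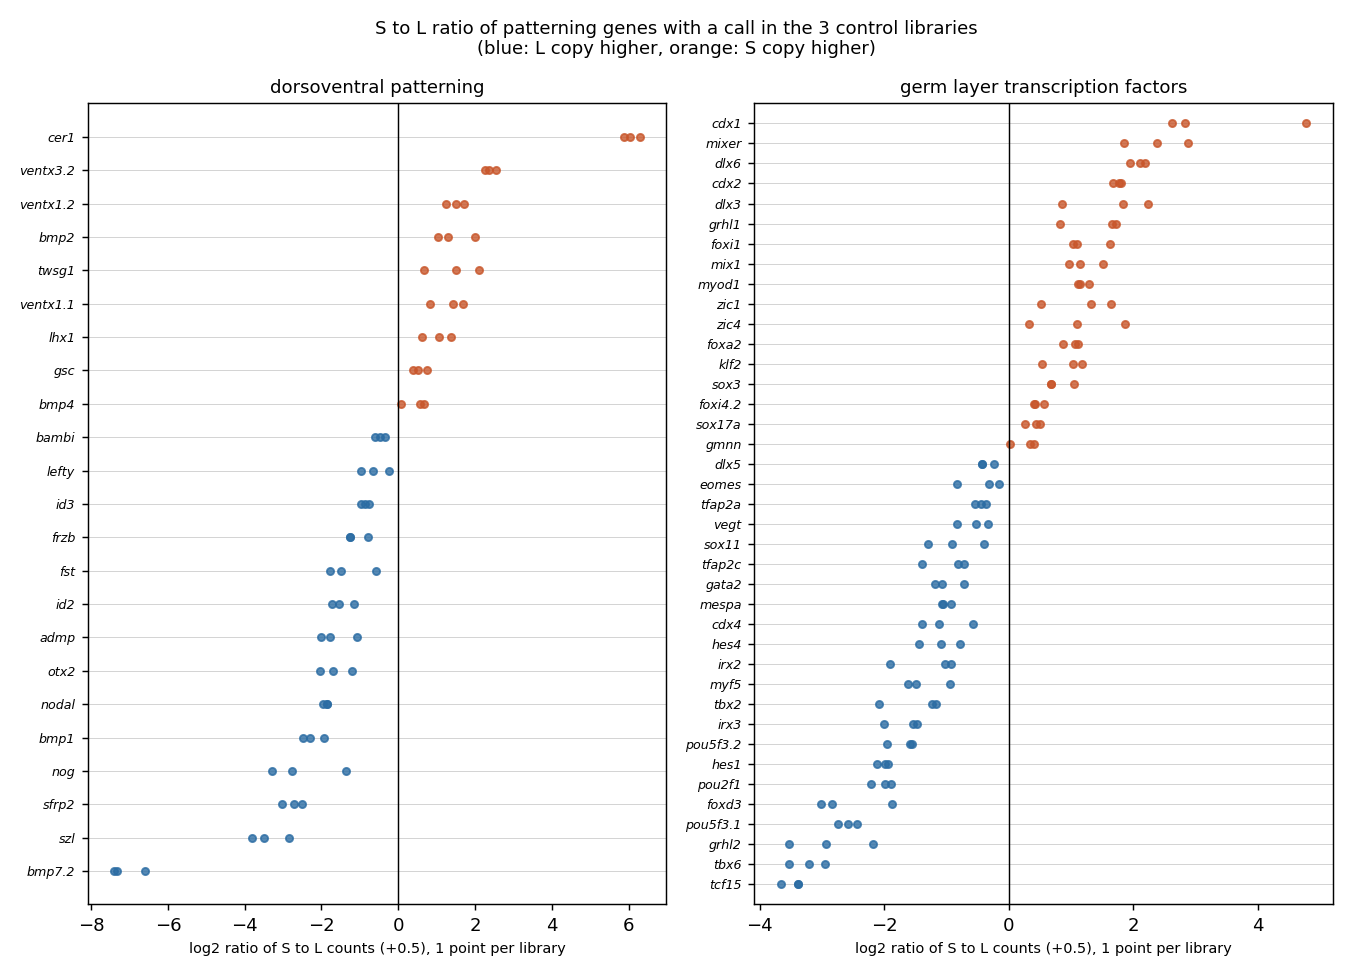
Log2 ratio of S to L counts, after adding 0.5, in each of the 3 control libraries (1 point each, horizontal axis) for the called pairs of dorsoventral patterning genes (left, 9 with S and 14 with L higher) and of germ layer transcription factors (right, 17 with S and 22 with L higher), in blue where the L copy was higher and in orange where the S copy was higher. The points of cer1 lie far to the right and those of bmp7.2 far to the left of all others on the left panel.

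The transcription factors of the germ layers had S higher in 17 of 58 pairs (29.3%) and L higher in 22 (37.9%), with 19 not passing, close to the shares of all pairs. As the plot of patterning ratios shows, none of them was 32-fold apart, against 10.6% of all pairs. No copy was without reads, while over all 5541 kept pairs L had no read in 103 and S in 194. In the mesoderm, tbx6, a T-box gene of paraxial mesoderm, had 304, 592 and 453 CPM from L and 26.3, 76.4 and 48.8 CPM from S, 9.38-fold apart (edgeR adjusted p = 2.67e-06). Its S model spans 2283 bases against 10814.

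The myogenic genes myf5 and myod1 leaned to opposite copies. Myf5 had 122, 514 and 404 CPM from L and 43.4, 167 and 211 CPM from S, 2.55-fold for L (edgeR adjusted p = 0.000147). Myod1 had 27.2, 94.9 and 81.7 CPM from L and 66.4, 211 and 177 CPM from S, 2.27-fold for S (edgeR adjusted p = 0.000108). Both genes were lowest in replicate 1 in both copies, as were the later muscle markers, and the ratios held while the levels differed severalfold. Without library as a term the call for myf5 was lost (adjusted p = 0.0554 by edgeR). Brachyury (t), the general mesoderm marker, had 30.3, 46.9 and 55.0 CPM from L and 39.1, 46.6 and 62.5 CPM from S and was not called. The T-box gene vegt was 1.48-fold higher for L, without a call when replicate 1 (log2 ratio -0.58, edgeR adjusted p = 0.0945) or replicate 3 (-0.43 and 0.142) was left out, and the same held for eomes, 1.35-fold for L, without replicate 2 (-0.24 and 0.214) or replicate 3 (-0.49 and 0.0998).

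Pluripotency factors of the pou5f3 family, relatives of mammalian Oct4, were called for L in 2 of 3 pairs, a call made in 38.6% of all pairs. Levels of pou5f3.1 were 170, 124 and 150 CPM for L and 28.3, 22.9 and 22.3 CPM for S (6.02-fold, edgeR adjusted p = 5.75e-06), and those of pou5f3.2 were 543, 473 and 548 CPM and 181, 122 and 187 CPM (3.24-fold, edgeR adjusted p = 1.16e-05). The pou5f3.3 copies had 62 and 74 reads in all and no call. The endoderm determinants sox17a and sox17b.1 had log2 ratios of 0.41 ± 0.09 and -0.12 ± 0.11 (SE), the first called for S (edgeR adjusted p = 0.00558) and the second not (0.332). The call for sox17a was lost without library as a term (0.282) and in a test against 1.5-fold (0.898).

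Mixer and mix1, homeobox genes of mesendoderm, were 5.19-fold and 2.34-fold higher for S at low levels, with adjusted p = 0.000949 and 0.0104 by edgeR, and mix1 was not called without replicate 1 (1.07 and 0.0840). In the GATA family gata2, a ventral and blood regulator, was 2.00-fold higher for L (edgeR adjusted p = 0.000884). The endodermal gata4, gata5 and gata6 were not called, with log2 ratios of 0.98 ± 0.39, -0.19 ± 0.22 and -1.22 ± 0.62 (SE). The endoderm and midline forkhead gene foxa2 had 72.1, 23.4 and 65.2 CPM from S and 33.3, 12.8 and 31.1 CPM from L, 2.03-fold apart (edgeR adjusted p = 0.00107).

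The epidermal grainyhead genes differed in direction, with grhl2 7.32-fold higher for L (edgeR adjusted p = 0.000146), grhl1 2.66-fold higher for S (0.00341) and grhl3 at a log2 ratio of 0.07 ± 0.18 (SE). Of the Zic genes, zic1 was 2.24-fold higher for S (edgeR adjusted p = 0.00406), while zic2 (-0.48 ± 0.20 SE) was not called. The neural progenitor gene sox3 had 191, 142 and 97.7 CPM from S and 92.2, 88.5 and 60.7 CPM from L, 1.75-fold apart (edgeR adjusted p = 0.00121). Notch pathway repressor genes hes1 and hes4 were 4.05-fold and 2.15-fold higher for L, and foxd3, of naive ectoderm and neural crest, 5.87-fold. The caudal gene cdx2 was 3.37-fold higher for S, with 49.9, 98.7 and 64.9 CPM against 15.5, 28.9 and 18.6 CPM (edgeR adjusted p = 5.19e-05). The symbol cdx1 joined an L model matched to human CDX1 with an S model matched to CDX2, so its 10.2-fold difference for S, 6.76-fold without replicate 2, may not compare copies of 1 gene.

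**Figure D3:**
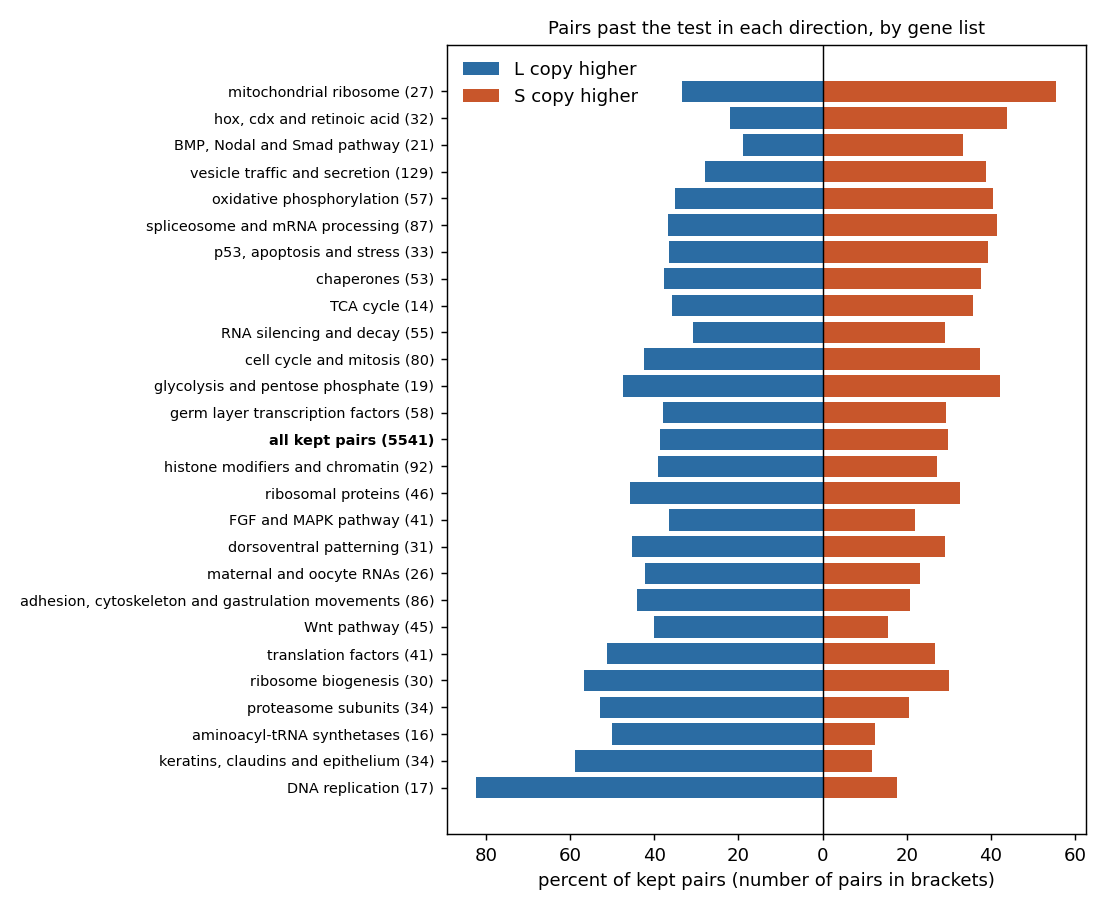
Percent of kept pairs with the L copy higher (blue, to the left) and with the S copy higher (orange, to the right) at an adjusted p under 0.05, for 26 gene lists and for all kept pairs, with the number of pairs in brackets. DNA replication has the highest share of L calls (82.4%) and the mitochondrial ribosome the highest share of S calls (55.6%).

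In the BMP, Nodal and Smad list the S copy was higher in 7 of 21 pairs and the L copy in 4 (33.3% and 19.0%, against 29.7% and 38.6% of all pairs), with a median log2 ratio of 0.59. The BMP receptor gene bmpr1a had 23, 20.1 and 15 CPM from S and 6.66, 5.2 and 4.83 CPM from L, 3.46-fold apart (edgeR adjusted p = 0.000432), and smad4.2, of the shared Smad partner, was 5.49-fold higher for S (0.000672). The Nodal co-receptor gene tdgf1.3 was 6.72-fold higher for L, at 66.8, 37.6 and 29.0 CPM against 9.03, 6.27 and 4.23 CPM (edgeR adjusted p = 2.13e-05). The proprotein convertase gene pcsk6 had 28.9, 15.1 and 20.6 CPM from L and 0.296, 0 and 0 CPM from S, 198-fold apart (edgeR adjusted p = 3.21e-05) and 1688-fold without replicate 1, which held all 4 S reads. In the Wnt list 7 of 45 pairs had S higher, 18 had L higher and 20 did not pass (15.6% and 40% called, against 29.7% and 38.6% of all pairs), at a median of -0.55. The ventral ligand gene wnt8a had 214, 155 and 138 CPM from L and 78.9, 51.2 and 52.9 CPM from S (2.78-fold, edgeR adjusted p = 3.75e-05), while ctnnb1, which encodes beta-catenin, the nuclear effector of the pathway, had 394, 286 and 238 CPM from S and 186, 117 and 139 CPM from L (2.07-fold, edgeR adjusted p = 0.000202).

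Among FGF and MAPK genes, 9 of 41 pairs had S higher and 15 had L higher (22.0% and 36.6%, against 29.7% and 38.6% of all pairs). The kinase gene braf was 6.74-fold and the adaptor gene grb2 6.63-fold higher for L, and the inhibitor gene spred1 had no S read at all, so that L, at 16.6, 11.2 and 13.9 CPM, was at least 174-fold higher. Its S model spans 42825 bases against 55034.

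Of 46 ribosomal protein pairs, 36 were called, 15 for S and 21 for L (32.6% and 45.7%, against 29.7% and 38.6% of all pairs), but only 13 were at least 2-fold apart (28.3%, against 57.3% of all pairs) and the S copies held 48.3% of the CPM. The small subunit genes rps15 and rps21 were 3.41-fold and 4.39-fold higher for S. The large subunit gene rpl36a stood apart, with 1189, 1603 and 1307 CPM from L and 91.2, 99.1 and 105 CPM from S, 13.8-fold (edgeR adjusted p = 3.73e-07).

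Translation factors had 11 of 41 pairs with S higher and 21 with L higher (26.8% and 51.2%, against 29.7% and 38.6% of all pairs). The initiation factor gene eif4b was 23.2-fold higher for L, with 288, 252 and 244 CPM against 12.6, 11.6 and 9.75 CPM (edgeR adjusted p = 6.61e-07), and eif3k 7.21-fold higher for S, with 413, 465 and 445 CPM against 60.4, 57.9 and 65.3 CPM (edgeR adjusted p = 1.62e-06). The elongation factor gene eef1g was 3.11-fold higher for L. For eif2b4, a subunit gene of the exchange factor of eIF2, there were 2319 L and 2 S reads in all, a ratio of 1160 (95% exact binomial interval 321 to 9580) with an S model of 1221 bases against 9848.

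Aminoacyl-tRNA synthetases, which charge transfer RNAs, had 8 of 16 pairs with L higher and 2 with S higher (50% and 12.5%, against 38.6% and 29.7% of all pairs). The leucyl enzyme lars had 26.8, 27.3 and 18.8 CPM from L and 0.296, 0.0825 and 0 CPM from S, 175-fold apart (edgeR adjusted p = 1.78e-05) and 444-fold without replicate 1. The mitochondrial glutamyl enzyme ears2 was 8.39-fold higher for L, the tyrosyl enzyme yars 2.97-fold and the glycyl enzyme gars 2.54-fold.

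Of 34 proteasome pairs, 18 had L higher (52.9%, against 38.6% of all pairs) and 7 had S higher (20.6%, against 29.7%), the median was -0.53, and S copies held 36.5% of the list's CPM. Core particle genes psmb6 and psma3 were 5.81-fold and 12.6-fold higher for L, with 195, 254 and 264 CPM against 33.4, 45 and 44.4 CPM for psmb6 and 126, 151 and 130 CPM against 9.69, 10.2 and 12.5 CPM for psma3 (edgeR adjusted p = 3.07e-06 and 3.30e-06). The regulatory particle genes psmc3 and psmd6 were 5.53-fold and 3.80-fold higher for L.

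Chaperones had 20 of 53 pairs called in each direction (37.7%, against 29.7% and 38.6% of all pairs). The endoplasmic reticulum chaperone gene hsp90b1 had 1668, 1236 and 1663 CPM from L and 102, 83.3 and 120 CPM from S, 15.0-fold apart (edgeR adjusted p = 2.42e-07). Its partner in the same compartment, hspa5, was 2.03-fold higher for S, at 586, 425 and 568 CPM against 261, 238 and 272 CPM (edgeR adjusted p = 5.76e-05). The cochaperone gene dnajc8 was 6.32-fold higher for S, and the chaperonin subunit gene cct2 and the prefoldin gene pfdn4 4.50-fold and 10.1-fold higher for L.

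Splicing and mRNA processing genes had 36 of 87 pairs with S higher (41.4%, against 29.7% of all pairs) and 32 with L higher (36.8%, against 38.6%), a median of 0.15 and 54.3% of the CPM from S. They were at least 32-fold apart in 8.05% of pairs, against 10.6% of all. The SR protein gene srsf7 had 1085, 1112 and 1072 CPM from S and 101, 86.6 and 79.0 CPM from L, 12.3-fold apart (edgeR adjusted p = 3.83e-07), whereas sf3b4, a part of the U2 particle, had 376, 382 and 385 CPM from L and 22.6, 17.9 and 18.0 CPM from S, 19.6-fold apart (8.29e-07). The rbm6 symbol joined an L model on 4L with an S model on 6S matched to human RPS20, a ribosomal protein gene, so its 9.32-fold difference for S may not compare copies of 1 gene. Its S model had 2055, 2395 and 2233 CPM, which are counted in the list's share of CPM from S.

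In ribosome biogenesis 17 of 30 pairs had L higher (56.7%, against 38.6% of all pairs) and 9 had S higher (30%, against 29.7%). The box C/D particle gene nop56 had 3099, 3450 and 2807 CPM from L and 157, 216 and 131 CPM from S, 18.9-fold apart (edgeR adjusted p = 2.79e-07). The processome gene utp23 was 29.5-fold higher for L, and bms1 had 4976 L and 2 S reads in all, a ratio of 2488 (95% exact binomial interval 688 to 20550) with an S model of 9472 bases against 27035.

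DNA replication had the highest share of calls for L of the 26 lists. All 17 pairs were called, against 68.3% of all pairs, 14 for L (82.4%, against 38.6%) and 3 for S (17.6%, against 29.7%), the median log2 ratio was -1.75, and S copies held 36.2% of the CPM. Of the 17 pairs, L was higher by at least 2-fold in 13, by at least 8-fold in 4 and by 32-fold in none. Over all 5541 kept pairs these counts were 1800, 829 and 373. Mcm5, a subunit of the replicative helicase, had 94.0, 66.6 and 57.2 CPM from L (Xelaev18023542m.g, chromosome 4L, 107507355 to 107519648) and 12.4, 8.42 and 6.30 CPM from S (Xelaev18025556m.g, chromosome 4S, 88235582 to 88249144). Its L copy was 8.14-fold higher (log2 ratio -3.03 ± 0.17 SE, edgeR adjusted p = 7.42e-06), with spans of 12294 bases for L and 13563 for S.

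A second helicase subunit, mcm2, was 6.89-fold higher for L, with 72.2, 55.9 and 44.1 CPM against 9.69, 7.59 and 7.42 CPM (edgeR adjusted p = 1.60e-05). The helicase loader gene cdc6 had 329, 143 and 247 CPM from L and 35.7, 26.8 and 23.5 CPM from S, 8.03-fold apart (edgeR adjusted p = 1.78e-05). Against this direction stood rrm1, the large subunit of ribonucleotide reductase, with 173, 144 and 163 CPM from S and 43.7, 35.0 and 48.3 CPM from L (3.80-fold, edgeR adjusted p = 1.63e-05), rfc5 and the replication inhibitor geminin (gmnn). The call for gmnn, 1.2-fold for S, was lost without replicate 2 (log2 ratio 0.21, edgeR adjusted p = 0.168) or replicate 3 (0.18 and 0.241).

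**Figure D4:**
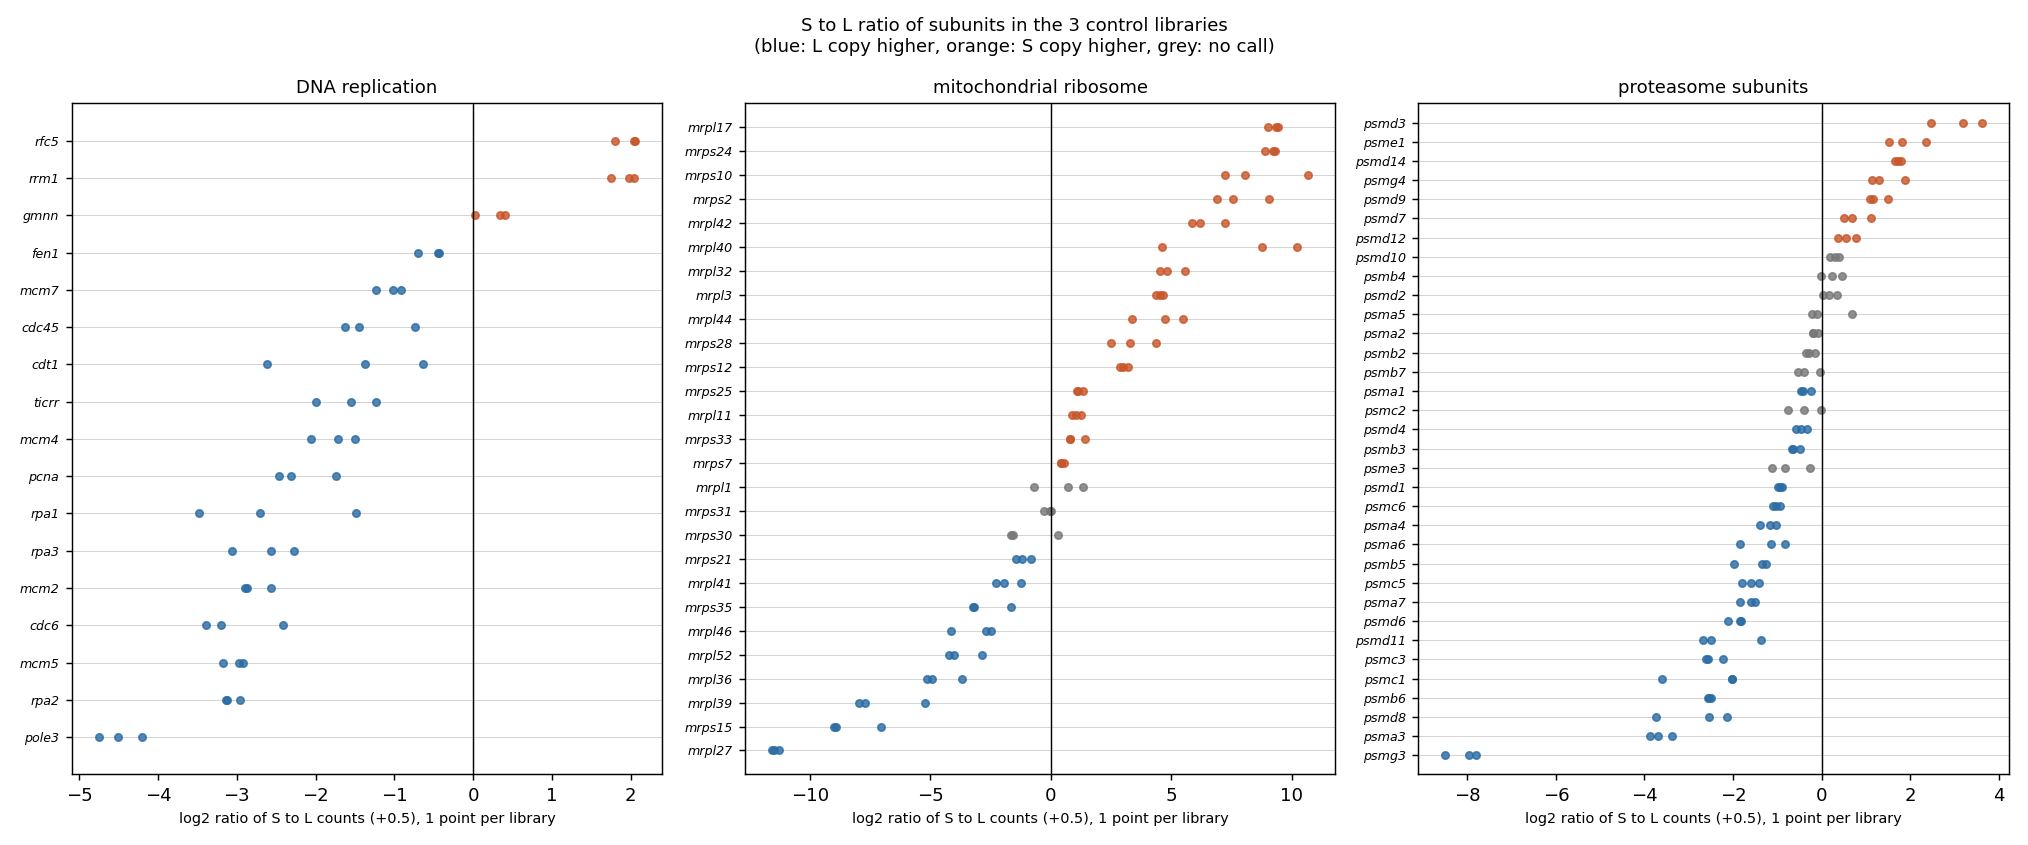
Log2 ratio of S to L counts, after adding 0.5, in each of the 3 control libraries (1 point each, horizontal axis) for 17 pairs of DNA replication genes (left), 27 of the mitochondrial ribosome (middle) and 34 of the proteasome (right), in blue where the L copy was higher, in orange where the S copy was higher and in grey without a call. Replication genes lie mainly left of 0, while mitochondrial ribosome genes reach far out on both sides.

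Genes of the cell cycle and mitosis had 30 of 80 pairs higher for S and 34 for L (37.5% and 42.5%, against 29.7% and 38.6% of all pairs), at a median of -0.06. The kinetochore gene ndc80 had 327, 359 and 299 CPM from S and 6.73, 7.35 and 7.07 CPM from L, 46.5-fold apart (edgeR adjusted p = 2.79e-07). Its S model spans 9290 bases against 21936 for L. The phosphatase gene cdc25c, which activates mitotic kinase, was 10.6-fold higher for L, and the ciliary motor gene kif3a 36.5-fold. Chromatin genes had 25 of 92 pairs with S higher and 36 with L higher (27.2% and 39.1%, close to the 29.7% and 38.6% of all pairs). The remodeller gene chd4 had 578, 638 and 529 CPM from L and 32.6, 35.2 and 32.3 CPM from S, 17.4-fold apart (edgeR adjusted p = 2.79e-07). Subunit genes of the SWI/SNF remodeller leaned to opposite copies, smarcc1 36.8-fold for L (edgeR adjusted p = 8.36e-07) and smarca4 6.68-fold for S (2.37e-06).

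The mitochondrial ribosome was the most unequal list in size. Of 27 pairs, 15 had S higher (55.6%, against 29.7% of all pairs) and 9 had L higher (33.3%, against 38.6%), the median log2 ratio was 1.02 and the median absolute log2 ratio 3.66, against 1.5 over all pairs. A difference of at least 32-fold was found in 9 pairs (33.3%, against 10.6% of all), as the plot of subunits shows. The large subunit gene mrpl42 had 73.0, 55.0 and 84.5 CPM from S and 0.444, 0.908 and 1.12 CPM from L, 86.1-fold apart (edgeR adjusted p = 3.66e-06), with an L model of 1329 bases against 7621. Its L model lies within the span of the L model of angpt4 on chromosome 3L, while the S models of both genes do not overlap. The part of this overlap in the low L counts of both genes was not tested. For mrpl3 the models are of like span, 53708 and 51511 bases, and S was 23.1-fold higher, with 64.4, 38.6 and 53.8 CPM against 2.74, 1.49 and 2.59 CPM (edgeR adjusted p = 3.84e-06). Mrpl27 went the other way, with 107, 125 and 108 CPM from L and no S read, at least 1404-fold. Its S model spans 6888 bases against 1551 for L.

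Respiratory chain genes had 23 of 57 pairs higher for S and 20 for L (40.4% and 35.1%, against 29.7% and 38.6% of all pairs), a median of 0.17 and 57.0% of the CPM from S. The ATP synthase gene atp5b had 717, 873 and 966 CPM from S and 260, 261 and 287 CPM from L (3.14-fold, edgeR adjusted p = 4.84e-06), and the complex I gene ndufs1 was 18.0-fold higher for L. The cytochrome oxidase gene cox4i2 was 36.8-fold higher for S, with 149, 117 and 173 CPM against 3.18, 2.56 and 6.90 CPM (edgeR adjusted p = 3.20e-06).

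Glycolysis and pentose phosphate genes had 8 of 19 pairs higher for S and 9 for L (42.1% and 47.4%, against 29.7% and 38.6% of all pairs). The transketolase gene tkt was 43.0-fold higher for L, with 172, 158 and 201 CPM against 5.62, 4.54 and 2.33 CPM (edgeR adjusted p = 6.74e-06), and the hexokinase gene hk2 7.66-fold higher for S. Among TCA cycle genes, 5 of 14 pairs were called in each direction (35.7%, against 29.7% for S and 38.6% for L of all pairs). The S copies held 31.0% of this list's CPM, against 47.6% over all kept pairs. The mitochondrial isocitrate dehydrogenase gene idh2 had 565, 532 and 606 CPM from L and 126, 114 and 141 CPM from S (4.49-fold, edgeR adjusted p = 2.15e-06).

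RNAs laid down in the oocyte had 6 of 26 pairs higher for S and 11 for L (23.1% and 42.3%, against 29.7% and 38.6% of all pairs), at a median of -0.36. The oocyte linker histone gene h1foo had 336, 221 and 290 CPM from S and 51.3, 25.7 and 52.8 CPM from L, 6.75-fold apart (edgeR adjusted p = 6.08e-06), while velo1, whose RNA is localized in the oocyte, had 45.6, 15.9 and 38.8 CPM from L and no S read, at least 420-fold. The symbol zar1 joined an L model matched to human ZAR1L with an S model matched to ZAR1 and was 5.33-fold higher for S. RNA silencing and decay genes had 16 of 55 pairs higher for S and 17 for L, with 22 not passing (29.1% and 30.9%, against 29.7% and 38.6% of all pairs). The nuclear exosome nuclease gene exosc10 had 462, 475 and 483 CPM from L and 1 S read in all, a ratio of 17591 (95% exact binomial interval 3157 to 694850). The exonuclease gene xrn2 was 5.56-fold higher for S and ythdf1, of a reader of methylated RNA, 5.2-fold higher for L.

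Genes of adhesion, cytoskeleton and gastrulation movements had 18 of 86 pairs higher for S (20.9%, against 29.7% of all pairs) and 38 for L (44.2%, against 38.6%), at a median of -0.35. The epithelial cadherin gene cdh1 stood against this count, with 80.2, 68.1 and 69.1 CPM from S and 0.296, 0 and 0.431 CPM from L, 291-fold apart (edgeR adjusted p = 5.88e-06) and 458-fold without replicate 3. The actin-binding gene pfn1 was 3.17-fold higher for S, with 619, 662 and 661 CPM against 180, 232 and 203 CPM. Keratins, claudins and other epithelial genes had 20 of 34 pairs higher for L (58.8%, against 38.6%) and 4 for S (11.8%, against 29.7%), at a median of -0.81. The tight junction gene cgn was 41.9-fold higher for L, with 137, 91.4 and 104 CPM against 2.89, 2.72 and 2.24 CPM (edgeR adjusted p = 1.63e-06).

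Keratin genes took both sides, with krt19 10.8-fold higher for L (edgeR adjusted p = 3.20e-06) and krt12 21.6-fold higher for S (1.03e-05). The S copy of krt12 had 499, 413 and 682 CPM and the L copy 14.1, 31.9 and 30.4 CPM.

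Hox, cdx and retinoic acid genes had 14 of 32 pairs higher for S and 7 for L (43.8% and 21.9%, against 29.7% and 38.6% of all pairs). The dehydrogenase gene dhrs11 had 37.9, 26.1 and 48.5 CPM from S and no L read, at least 463-fold, with an L model of 6086 bases against 60543. The enzyme gene rdh10, for the first step of retinoic acid synthesis, was 6.02-fold higher for L, with 181, 124 and 186 CPM against 24.8, 22.2 and 34.9 CPM (edgeR adjusted p = 7.59e-06). Vesicle traffic and secretion genes had 50 of 129 pairs higher for S (38.8%, against 29.7% of all pairs) and 36 for L (27.9%, against 38.6%), at a median of 0.45. The members named for their small adjusted p were srp72, given above and higher for S, and 3 pairs higher for L. The endosomal GTPase gene rab7a was 28.0-fold higher for L and the translocon gene sec61g 3.53-fold. The retrieval receptor gene kdelr3 had 214, 232 and 205 CPM from L and 1.41, 4.79 and 1.98 CPM from S, 85.0-fold apart (edgeR adjusted p = 4.49e-06). Genes of p53, apoptosis and stress had 13 of 33 pairs higher for S and 12 for L (39.4% and 36.4%, against 29.7% and 38.6% of all pairs). The oxidative stress sensor gene keap1 was 11.4-fold higher for S, at 24.9, 31.9 and 25 CPM against 1.55, 2.23 and 3.62 CPM (edgeR adjusted p = 6.58e-05).

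In a few pairs 1 copy was nearly absent from 1 control library while its partner was steady. By a rule set after values were seen, a copy was counted here if it was at least 8-fold below both other libraries, which held at least 10 CPM, while the partner varied by less than 2-fold. Of 3175 pairs with a copy at 10 CPM or more in at least 2 libraries, 3 met this and in all 3 the S copy was low. The 3175 include pairs without a steady partner, which could not meet the rule. A copy at least 8-fold above both other libraries, beside a steady partner, was also looked for and found in 0 pairs. The S copy of kansl2 (Xelaev18015813m.g, chromosome 2S, 118247664 to 118257216), a gene of a histone acetyltransferase complex, had 321, 370 and 8.02 CPM, while its L copy (Xelaev18013297m.g, chromosome 2L, 136413197 to 136433076) had 139, 138 and 126 CPM. Its fitted ratio of 0.01 ± 1.07 (SE) therefore averages 2 libraries with S above L and 1 far below. The alkaline phosphatase gene alpl had 2.59, 459 and 305 CPM from S and 305, 220 and 231 CPM from L, so that S exceeded L in replicates 2 and 3 alone. The NF-kappa-B regulator gene ikbkg had 0, 23.2 and 20.9 CPM from S and 7.03, 8.09 and 4.74 CPM from L.

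**Figure D5:**
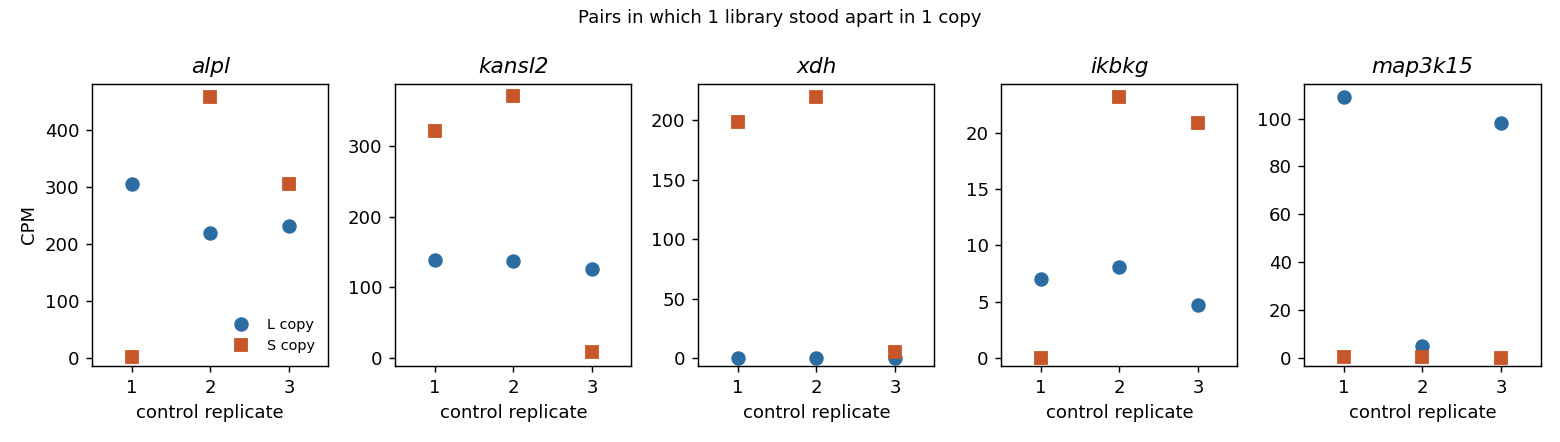
Level in CPM (vertical axis) of the L copy (blue circles) and the S copy (orange squares) in control replicates 1, 2 and 3 (horizontal axis) for 5 pairs in which 1 library stood apart in 1 copy. The S copy of alpl and ikbkg was low in replicate 1 and that of kansl2 and xdh in replicate 3, and the L copy of map3k15 was low in replicate 2.

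Both other pairs of that plot, xdh and map3k15, were chosen after their values were seen. The xanthine dehydrogenase gene xdh had 198, 220 and 5.43 CPM from S and 1 L read in all, so no steady partner stood beside it. The kinase gene map3k15 had 109, 4.95 and 98.3 CPM from L and 0.444, 0.495 and 0 CPM from S. The low library differed between these pairs, replicate 1 for alpl and ikbkg, replicate 2 for map3k15 and replicate 3 for kansl2 and xdh. Without replicate 1 the log2 ratio of alpl turned from -0.77 to 0.73 and passed the test (edgeR adjusted p = 0.00783), while it was -2.80 without replicate 2 and -2.43 without replicate 3, without a call. The fold for map3k15 was 429 without replicate 2 and 89.1 without replicate 3. What sets the low library apart was not tested.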

How the data were processed

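RNA from whole embryos was sequenced with a stranded TruSeq mRNA kit, per the labels' protocols. STAR 2.5.2a, edgeR 3.15.2, FastQC 0.11.4 and bcl2fastq 2.17.1.14 are named in the submitters' processing notes. The deposited files hold whole-number read counts per gene in STAR's layout, which counts only reads that map to 1 place, so reads shared by both copies were left out. The reverse-strand column was used, which held 92.1 to 93.9% of stranded gene counts. The 4 summary lines per file, with 31.5 to 35.6% of reads unmapped, 2.02 to 2.32% mapping to several places and 52.0 to 56.1% outside features, entered no library size. Models, human symbols and spans came from the deposited annotation table, per its legend Xenbase models on Xenla9.1. No sequence was used here.

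CPM was computed from total gene counts. Each pair was fitted in R 4.3.3 with edgeR 4.0.16 (glmQLFit, glmQLFTest, two-sided) on 3 L and 3 S columns with library and copy as terms, which leaves 2 residual degrees of freedom per pair, and Benjamini-Hochberg adjustment over all 5541 kept pairs. An SE is the size of the log2 ratio divided by the square root of F. Where a copy has few reads, such an SE can be smaller than the counting error of those reads. The library pairs the copies by construction, so no test of pairing was needed. P-values rest on the spread between these 3 libraries only. In edgeR the dispersion of a pair was moderated with those of all kept pairs, so small p-values draw on that shared estimate too. A copy without reads gives a lower bound against 3 counts over the libraries, and copies with 1 to 3 reads that are given as a ratio have an exact binomial 95% interval. Reads are not independent molecules, so floors and intervals cover counting error only. The fit was also run on simulated counts with known ratios, whose outcome is not given here.

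Named pairs are the 10 most unequal on each side (20 CPM or more, at least 10 reads in each copy), the 5 highest on each side with a silent copy, the 10 most abundant, the 6 most even at 50 CPM or more, up to 4 members of each list with the smallest adjusted p, and any pair of both patterning lists. Kansl2, alpl, ikbkg, xdh and map3k15 as pairs with a library apart, and rfc5, tnnc1 and spans of silent models were named after values were seen. A few pairs chosen by it are left out of the text. Members and lists were chosen with earlier results of these data known. Alternatives covered filters, scaling, strand, span, tool, the library term and each library left out.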

Additional observations from a re-analysis of the deposited data

Results flagged for a closer look

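Counts on the strand opposite to the pair models, a column that no comparison used, summed to 0.686, 0.792 and 0.792% of the pair counts on both strands in control replicates 1, 2 and 3, which is above the limit that a count of 0 allows. These reads came from both copies, 2329, 2515 and 2558 CPM from L models and 1708, 1949 and 1829 CPM from S models. Their source was not tested.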

How the results depend on the processing

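The counts of 1645 pairs with S higher and 2141 with L higher stayed within 1.5 times of themselves under all alternatives but 1. Restricting the fit to 2580 pairs whose spans differ by at most 1.2 times gave 736 and 944, with fewer pairs tested. Leaving out 1 library gave 1408 to 1429 with S higher, 1871 to 1890 with L higher, a median log2 ratio of -0.22 to -0.21 and an S share of 47.6%. The fit with no replicate block, the library being the block that pairs the copies, gave 1622 and 2102. DESeq2 1.42.0 gave 1659 and 2162, limma 3.58.1 gave 1592 and 2021, and a test against a 1.5-fold difference 1358 and 1803. Without a filter, over 8258 pairs, the counts were 1718 and 2242 (20.8% and 27.1%) and the median was -0.020. The subset with the same human symbol, matching chromosomes and spans within 2 times, chosen after seeing the data, held 1230 and 1593. Reversed values among the 224 named pairs were hnrnpdl per kb of span, 0.21 with a call for S, and gsc per kb of span, -0.088. Also reversed was alpl without replicate 1, 0.73, within a range of -2.80 to 0.73 over the libraries left out. The cause was not tested. Calls were lost for 17 named pairs in the test against 1.5-fold, 14 with limma, 14 with no replicate block and 8, 10 and 11 without replicate 1, 2 and 3. Depth limits low pairs most, as a floor of 3 counts was 0.222 to 0.259 CPM. Span includes introns and is a poor stand-in for transcript length.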
